A study of Mus musculus with 16 samples.

Results

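Messages for the nuclear-encoded subunits of respiratory complexes II to V were followed in hepatocyte RNA of mice on DDC diet and on chow. The 49 genes were all nuclear protein-coding genes for succinate dehydrogenase (complex II, 4 genes), cytochrome bc1 (complex III, 9 genes), cytochrome c (Cycs), cytochrome c oxidase (complex IV, 16 genes) and ATP synthase (complex V, 19 genes), taken by their symbols from the 48158 genes of the table. Assembly factors and mitochondrially encoded genes were left out, and Usmg5 was counted in because RefSeq names it as an ATP synthase subunit. Of the 49, 46 reached 1 FPKM (fragments per kilobase of transcript, scaled to library size) in at least 2 libraries and were tested among 11790 such genes. The other 3 were the muscle isoform Cox6a2 (0 to 0.418 FPKM in DDC and 0 in every CHOW library), Cox7b2 (0 in every library) and a second gene annotated as Atp5o, which reached 0.235 FPKM at most.

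These complexes make up the later steps of oxidative phosphorylation in the inner mitochondrial membrane. Complex II feeds electrons from succinate into ubiquinone, complex III passes them to cytochrome c, complex IV hands them to oxygen, and ATP synthase uses the proton gradient to make ATP. Complexes III, IV and V each also hold subunits made inside mitochondria, whereas every subunit of complex II is encoded in the nucleus, and all the messages described here are translated on ribosomes outside the organelle.

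One set of FVB mice was fed DDC diet, a porphyrinogenic diet that injures bile ducts and hepatocytes, for 4 weeks, and the control FVB mice were on chow. Livers of both diets were dissociated with cycloheximide, which holds ribosomes on messages, and hepatocyte lysate was taken as total cytoplasmic RNA or split on sucrose gradients into monosomes with 1 ribosome, light polysomes with 2 to 4 and heavy polysomes with more than 5 ribosomes. Polyadenylated RNA was sequenced in 16 libraries, 2 for each diet and pool. Gradient libraries came from preparations B and C of DDC livers and from preparations CH1_CH2 and CH3_CH4 of CHOW livers, and cytoplasmic libraries from C2 and D2 of DDC and CH1 and CH3 of CHOW. Age and sex were not given in the sources used here, nor does any label say that each library is 1 animal. The p-values thus rest on the variation among these libraries, which may be technical, and fractions of 1 preparation were treated as independent.

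Summed FPKM ran from 375145 to 1386166 per library, 8313 to 9874 genes reached 1 FPKM, and sequenced depth is unknown because only scaled FPKM were used. The 4 CHOW libraries numbered 1 had all 4 Y-linked genes examined at 0 and Xist above 0. In the other 12 Xist was at 0 and the Y-linked gene Eif2s3y above 0, so each member's diet change below was also computed without the 4. Hepatocyte markers were present, with 5871 to 17011 summed FPKM in DDC and 11712 to 34845 in CHOW, and in cytoplasm alone 10753 to 17011 in DDC and 12332 to 16748 in CHOW. Some were listed at 0 in whole groups, so these sums are not a measure of hepatocyte content: Alb in all 16 libraries, Apoa1 in all DDC ribosome fractions and on CHOW heavy polysomes, Serpina1c in every CHOW library and Ttr on CHOW light polysomes. Markers of other liver cells stood higher in DDC libraries: 182 to 555 summed FPKM in DDC against 17.7 to 124 in CHOW for 6 cholangiocyte genes, 349 to 3198 against 35.6 to 232 for 7 macrophage genes and 68.7 to 171 against 12.6 to 36.5 for 6 stellate cell genes. Endothelial markers stood at 11.1 to 42.4 in DDC and 10.5 to 15.1 in CHOW, red blood cell markers at 8.31 to 139.8 in DDC and 2.73 to 69.4 in CHOW. Epcam was at 0 in every CHOW library. The part of these other cells in the diet differences of the respiratory messages was not tested, and in such bulk samples fewer hepatocytes cannot be told apart from less RNA per hepatocyte.

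The first comparison asked how the diet went with the level of respiratory messages in each RNA pool. Each of the 4 complexes had members that were called lower in DDC than in CHOW in every pool, and 9 of the 46 members were called lower in no pool. In cytoplasm 24 of the 46 members were called lower and 0 higher (limma, Benjamini-Hochberg adjusted p under 0.05 over all genes tested), where 9.68% of all genes tested were lower and 12.7% higher. The members' median log2 change there was -0.82, against 0.01 over all genes. On monosomes 30 members were lower and 1 higher (median -0.99), against 15.9% of all genes lower and 21.0% higher. Light polysomes had 31 lower and 0 higher (median -1.21), where 13.5% of all genes were lower and 16.6% higher, and heavy polysomes 33 lower and 1 higher, Cox4i2, which passed the filter through DDC libraries alone (median -1.08), where 10.9% were lower and 13.9% higher. The same 21 members were called lower in all 4 pools: 2 of the 4 genes of complex II, 3 of 9 of complex III, 6 of 14 tested of complex IV and 10 of 18 tested of complex V. In the opposite direction stood only Uqcrc1 on monosomes and Cox4i2 on heavy polysomes, both described below. Scaling every library to the same total, or by quantiles, left the heavy polysome count at 17 and 19 lower with medians of -0.57 and -0.65, and a fit to the 4 heavy polysome libraries alone called 0 members lower. Without the 4 CHOW libraries numbered 1 the calls came to 1 in cytoplasm, 18 on monosomes, 14 on light polysomes and 10 on heavy polysomes, with medians of -0.90, -1.06, -1.18 and -1.11. Leaving out any 1 of the 4 cytoplasmic libraries left 8 to 15 calls in that pool, and leaving out DDC or CHOW heavy polysome replicate 2 left 20 and 22 on heavy polysomes.

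**Figure D1:**
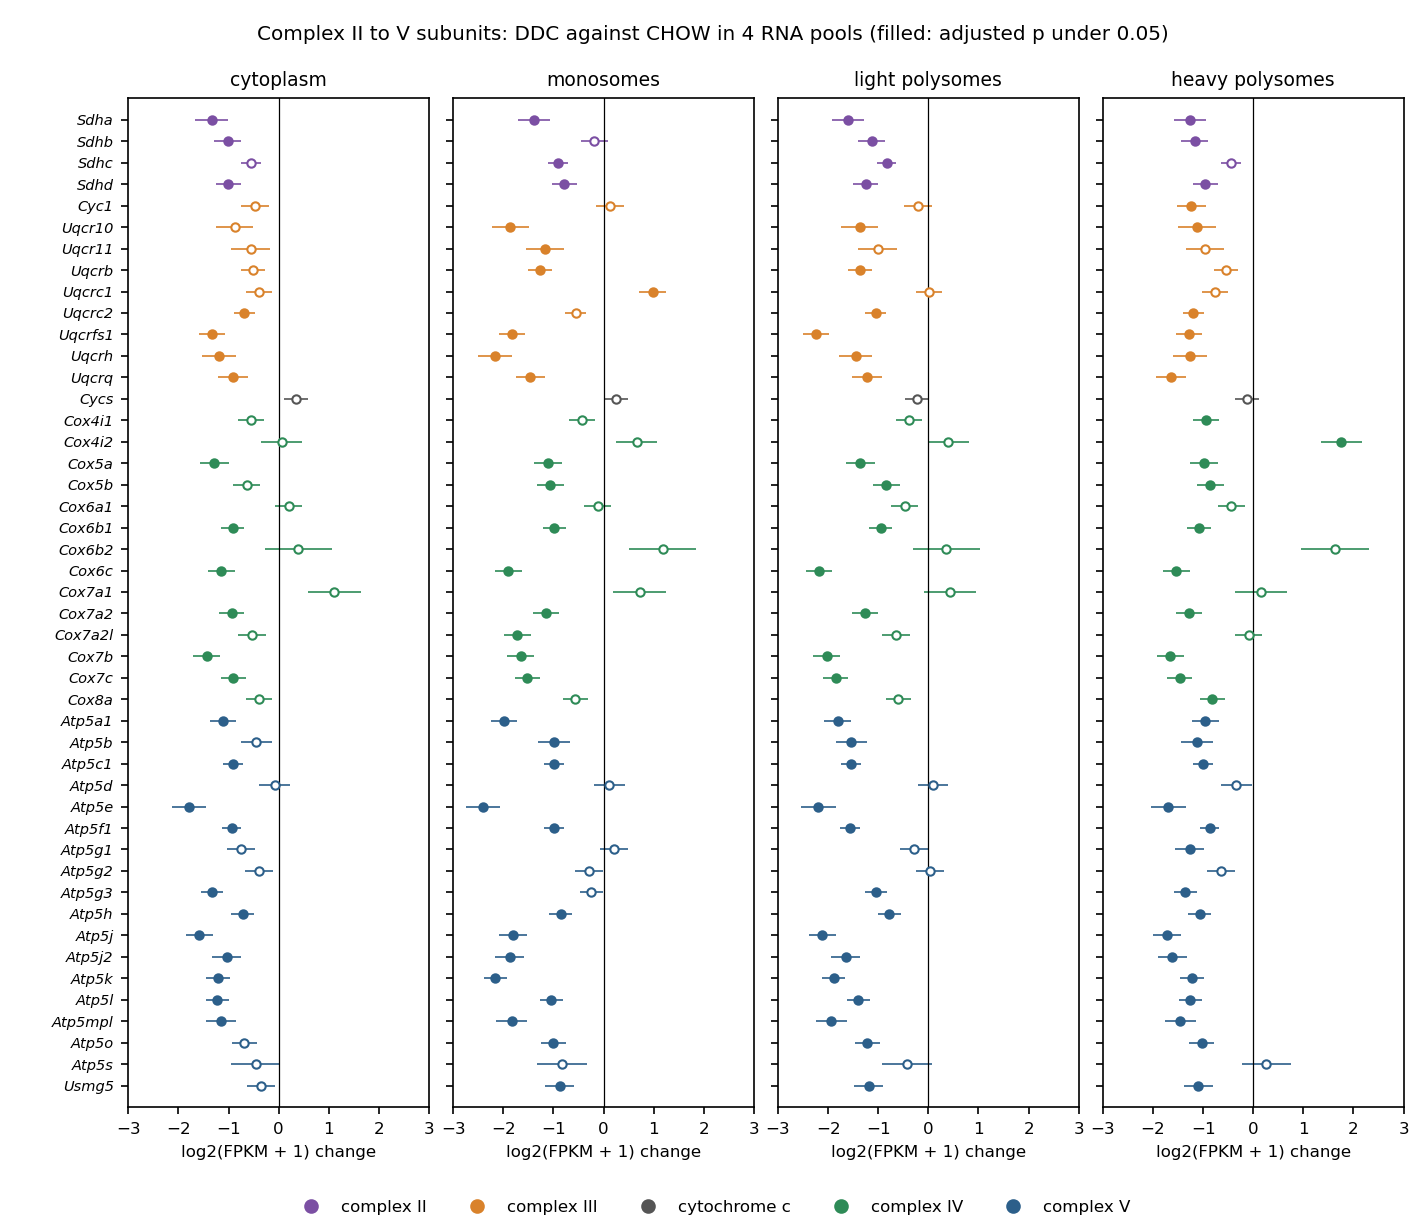
Log2 change of DDC against CHOW (log2 of FPKM + 1) for the members tested, by complex, in each of the 4 RNA pools; each point is 1 gene and filled points passed an adjusted p of 0.05. Points of all complexes lie mostly below 0 in every pool, with medians of -0.82 in cytoplasm, -0.99 on monosomes, -1.21 on light polysomes and -1.08 on heavy polysomes.

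As a share of each library's summed FPKM, the members together held 1.75% and 1.71% of DDC cytoplasmic RNA and 2.58% and 2.57% of CHOW cytoplasmic RNA. On light polysomes, where the share was highest, it was 4.22% and 3.78% in DDC and 7.12% and 7.47% in CHOW, and on heavy polysomes 3.47% and 2.71% in DDC and 4.30% and 4.60% in CHOW. The monosome shares were 2.15% and 1.84% in DDC and 3.50% and 3.65% in CHOW. In all 4 pools both DDC libraries lay below both CHOW libraries. Complex V held most, at 0.705% and 0.681% of cytoplasmic FPKM in DDC and 1.10% in each CHOW library. Complex II held least of the complexes, at 0.0721% and 0.0722% in DDC and 0.121% and 0.122% in CHOW, and on heavy polysomes 0.111% and 0.101% in DDC against 0.144% and 0.153% in CHOW. The share of cytochrome c was higher in both DDC libraries than in both CHOW libraries in 3 pools: 0.0104% and 0.0116% in DDC against 0.00650% and 0.00852% in CHOW in cytoplasm, 0.00251% and 0.00223% against 0.00182% and 0.00138% on monosomes, and 0.00883% and 0.00927% against 0.00667% and 0.00732% on heavy polysomes. It overlapped on light polysomes. A share also depends on the library total, which on heavy polysomes was 1092668 and 858593 in DDC and 1386166 and 1364644 in CHOW. The FPKM of Cycs itself overlapped between the diets on heavy polysomes, and its diet change was called in no pool.

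**Figure D2:**
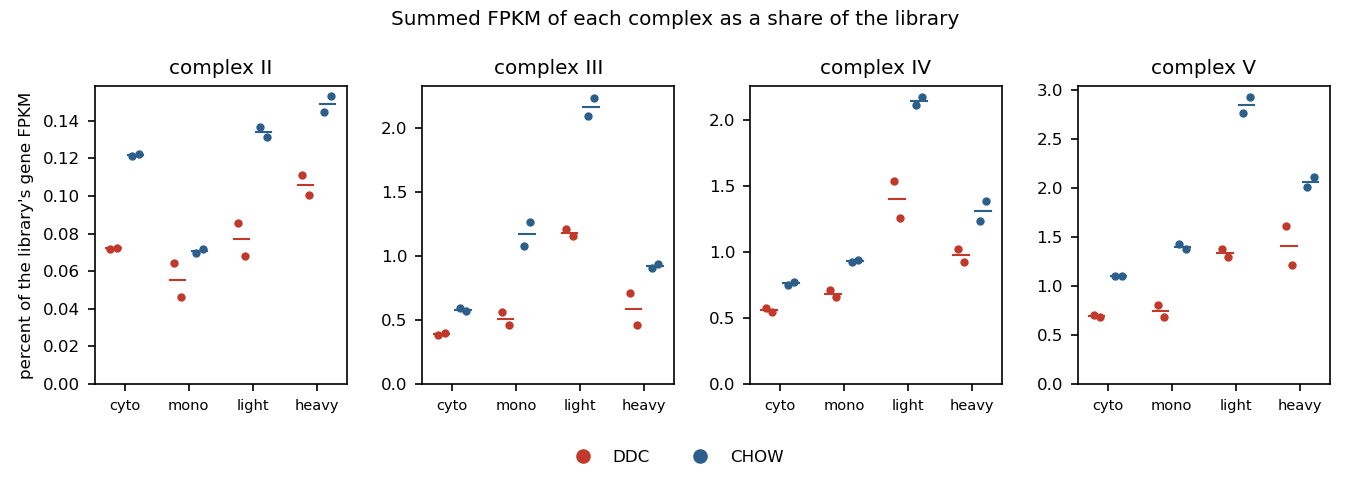
Percent of each library's summed FPKM held by the members of each complex, by RNA pool, with 1 point per library and DDC left of CHOW. Both DDC libraries lie below both CHOW libraries for complexes II, III, IV and V in every pool, and the share of all members together is highest on CHOW light polysomes.

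All 4 genes of complex II were lower in DDC in at least 2 pools. Sdha, the flavoprotein that oxidises succinate (chr13:74322254-74350280 in GRCm38), was at 38.6 and 32.9 FPKM in DDC and 91.7 and 91.3 FPKM in CHOW cytoplasm. On heavy polysomes it was at 32.4 and 51.2 FPKM in DDC and 96.8 and 102 FPKM in CHOW, and the diets did not overlap in either pool. Its log2 change was -1.33 ± 0.32 in cytoplasm (adjusted p = 0.0124) and -1.27 ± 0.32 on heavy polysomes (adjusted p = 0.0138). Sdhb, the iron-sulfur subunit that passes the electrons on, stood at 759 and 433 FPKM on DDC heavy polysomes and 1250 and 1335 FPKM on CHOW heavy polysomes. Both DDC values lay well below both CHOW values (log2 change -1.17 ± 0.27, adjusted p = 0.00716), as they did in cytoplasm (106 and 79.4 in DDC, 170.2 and 204 in CHOW; log2 change -1.02 ± 0.27, adjusted p = 0.0173). On monosomes the Sdhb values overlapped, at 165 and 139.5 in DDC and 164 and 181 in CHOW (log2 change -0.18 ± 0.27, adjusted p = 0.618). Sdhc and Sdhd anchor the enzyme in the membrane and bind ubiquinone. Sdhd was at 144 and 143 FPKM in DDC and 382 and 309 FPKM in CHOW light polysomes, with no overlap and a log2 change of -1.25 ± 0.25 (adjusted p = 0.00304), and it was called in every other pool as well (-1.01 in cytoplasm, -0.78 on monosomes and -0.95 on heavy polysomes). For Sdhc the values were 73.7 and 67.8 FPKM in DDC and 115 and 154 FPKM in CHOW monosomes (log2 change -0.91 ± 0.20, adjusted p = 0.00384), again with no overlap. It was called on light polysomes (-0.83) and missed the threshold in cytoplasm (-0.55, adjusted p = 0.0643) and on heavy polysomes (-0.45, adjusted p = 0.119).

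In complex III the electron carriers Uqcrfs1 and Cyc1 were both called lower on heavy polysomes, and only Uqcrfs1 in the other pools. The difference between these genes was not tested. Uqcrfs1, the Rieske iron-sulfur protein (chr13:30540308-30545362), was at 66.9 and 56.0 FPKM in DDC and 148 and 165 FPKM in CHOW cytoplasm, and at 47.0 and 54.1 FPKM in DDC and 274 and 213 FPKM in CHOW light polysomes. The DDC values were below the CHOW values in all 4 pools, with log2 changes of -1.34 ± 0.26 in cytoplasm (adjusted p = 0.00365), -1.83 ± 0.26 on monosomes (0.000312), -2.24 ± 0.26 on light polysomes (0.000102) and -1.27 ± 0.26 on heavy polysomes (0.00378). Cyc1, cytochrome c1, which hands the electrons to cytochrome c, was at 121 and 88.2 FPKM in DDC and 133 and 156 FPKM in CHOW cytoplasm (log2 change -0.47 ± 0.28, adjusted p = 0.266) and was not called there. On heavy polysomes it was at 601 and 355 FPKM in DDC and 1050 and 1127 FPKM in CHOW, where it was called lower (log2 change -1.23 ± 0.28, adjusted p = 0.00779). The core proteins Uqcrc1 and Uqcrc2 form the matrix side of the complex. Uqcrc2 was at 77.2 and 81.3 FPKM in DDC and 168 and 199 FPKM in CHOW heavy polysomes (log2 change -1.20 ± 0.21, adjusted p = 0.00172), and the diets did not overlap. Its partner Uqcrc1 was at 159 and 114 FPKM in DDC and 72.8 and 63.1 FPKM in CHOW monosomes, the one pool in which a subunit of complex III was called higher in DDC (log2 change 0.98 ± 0.26, adjusted p = 0.0128). The Uqcrc1 monosome call ended without the 4 CHOW libraries numbered 1 (adjusted p = 0.0896), without DDC monosome replicate 1 (0.74, adjusted p = 0.0887), without CHOW monosome replicate 2 (0.88, adjusted p = 0.0806) and with the compared groups alone (adjusted p = 0.0752). In cytoplasm Uqcrc1 was at 99.5 and 74.7 FPKM in DDC and 110.1 and 118 FPKM in CHOW (-0.40, adjusted p = 0.318).

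The small subunits of complex III around this core were each called lower on monosomes. The hinge protein gene Uqcrh was at 429 and 335 FPKM in DDC and 1662 and 1744 FPKM in CHOW monosomes (log2 change -2.16 ± 0.34, adjusted p = 0.000554) and was called in all 4 pools, as was Uqcrq (-0.92 in cytoplasm to -1.64 on heavy polysomes). Uqcr10 was called on monosomes (-1.86), light polysomes (-1.37) and heavy polysomes (-1.12), Uqcrb on monosomes (-1.27) and light polysomes (-1.36), and Uqcr11 on monosomes alone (-1.17). Cycs, the mobile carrier between complexes III and IV and also an activator of apoptosis once released, was at 46.4 and 43.5 FPKM in DDC and 29.0 and 42.5 FPKM in CHOW cytoplasm, and at 96.2 and 79.4 FPKM in DDC and 92.0 and 99.6 FPKM in CHOW heavy polysomes. Both DDC values were above both CHOW values in cytoplasm, and the diets overlapped on heavy polysomes. Its log2 changes were 0.35 ± 0.24 in cytoplasm, 0.26 on monosomes, -0.23 on light polysomes and -0.13 ± 0.24 on heavy polysomes, with adjusted p = 0.333, 0.424, 0.503 and 0.745. In cytoplasm its protein-coding transcript overlapped between the diets, at 29.8 and 30.5 FPKM in DDC and 24.2 and 31.5 FPKM in CHOW. The diets stood apart there for a retained-intron transcript, at 16.6 and 13.0 FPKM in DDC and 4.78 and 11.0 FPKM in CHOW. Processed copies of Cycs and of several small subunits lie elsewhere in the mouse genome, and how the authors treated reads shared with them is not given in the sources used here.

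**Figure D3:**
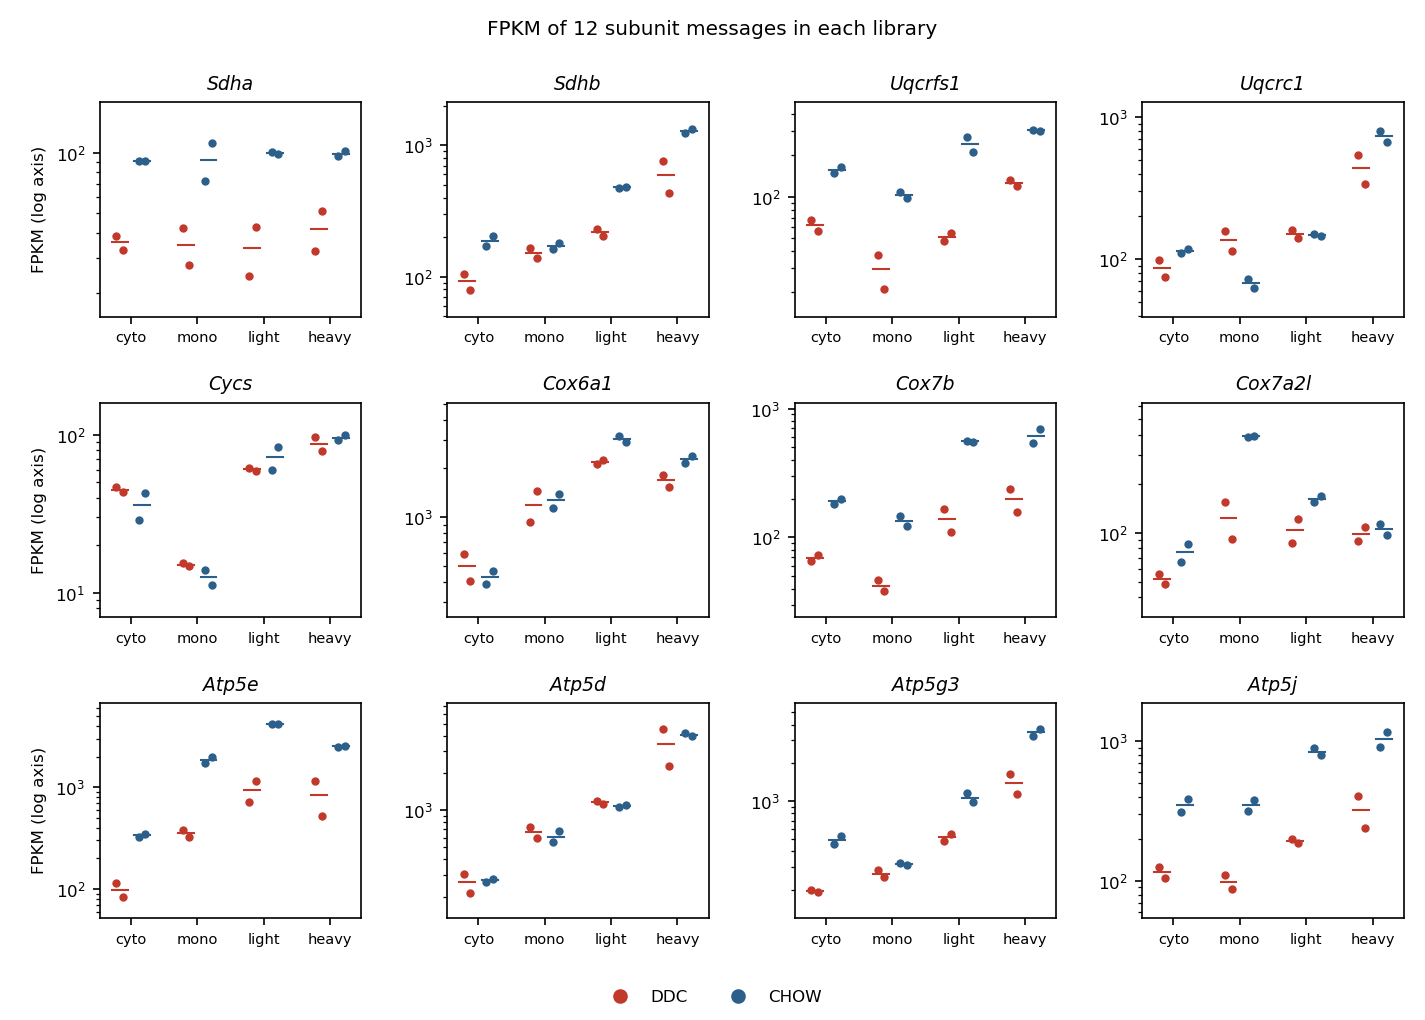
FPKM (log axis) of 12 members in each of the 16 libraries, by RNA pool, with 1 point per library and DDC left of CHOW. Sdha, Uqcrfs1, Cox7b, Atp5e and Atp5j are lower in both DDC libraries in every pool, whereas Cycs, Cox6a1 and Atp5d overlap or nearly overlap between the diets in cytoplasm.

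Complex IV split by subunit. Its catalytic core is mitochondrially encoded, and the nuclear subunits around it fell into a group of 6 called lower in all 4 pools (Cox5a, Cox6b1, Cox6c, Cox7a2, Cox7b and Cox7c) and a group called in fewer pools or none. Cox7b (chrX:106015700-106022450), a small subunit with 1 membrane-spanning stretch, was at 66.0 and 73.4 FPKM in DDC and 182 and 198 FPKM in CHOW cytoplasm. It was at 239 and 156 FPKM in DDC and 538 and 694 FPKM in CHOW heavy polysomes, and neither pool had any overlap. Its log2 changes were -1.44 ± 0.27 (adjusted p = 0.00294) and -1.66 ± 0.27 (adjusted p = 0.000952). Cox6c had the lowest adjusted p of complex IV on monosomes and light polysomes. It was at 664 and 613 FPKM in DDC and 3107 and 2698 FPKM in CHOW light polysomes, and at 292 and 184 FPKM in DDC and 868 and 868 FPKM in CHOW monosomes, and its DDC values were all under its CHOW values (-2.18 ± 0.27 and -1.90 ± 0.27, adjusted p = 0.000145 and 0.000304). Cox5a, which faces the matrix, was at 124 and 120.1 FPKM in DDC and 282 and 317 FPKM in CHOW cytoplasm (log2 change -1.28 ± 0.29, adjusted p = 0.00784). Cox5b, a zinc-binding subunit beside it, was called in the 3 ribosome fractions and not in cytoplasm (-0.64, adjusted p = 0.111).

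Cox4i1, the ubiquitous form of subunit 4 through which ATP inhibits the enzyme, was at 426 and 298 FPKM in DDC and 495 and 548 FPKM in CHOW cytoplasm. That difference had a log2 size of -0.55 ± 0.26 and was not called (adjusted p = 0.159). On heavy polysomes Cox4i1 was at 3231 and 2126 FPKM in DDC and 5028 and 5046 FPKM in CHOW (log2 change -0.94 ± 0.26, adjusted p = 0.0203), its one call. Cox6a1, the non-muscle form of subunit 6a, was at 591 and 402 FPKM in DDC and 385 and 468 FPKM in CHOW cytoplasm, and at 1831 and 1544 FPKM in DDC and 2165 and 2385 FPKM in CHOW heavy polysomes. Its cytoplasmic DDC values lay on both sides of one CHOW value, and no pool gave a call (0.20 ± 0.27 in cytoplasm to -0.47 ± 0.27 on light polysomes, adjusted p = 0.656 and 0.207). With equal library totals its monosome and heavy polysome changes had the opposite sign (0.19 and 0.07). Cox8a was called on heavy polysomes alone (-0.82, adjusted p = 0.0333). Cox7a2l, which links complexes III and IV into supercomplexes, was called on monosomes alone, at 154 and 91.0 FPKM in DDC and 389 and 395 FPKM in CHOW (log2 change -1.72 ± 0.27, adjusted p = 0.00064), and was at 55.8 and 48.2 FPKM in DDC and 66.2 and 85.8 FPKM in CHOW cytoplasm (-0.53, adjusted p = 0.194).

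Of the isoforms of complex IV typical of other tissues, Cox4i2 and Cox6b2 stayed under 1 FPKM in some libraries of both diets, whereas Cox7a1 reached 1 FPKM in all 16. Cox4i2, a form known from lung, was at 5.12 and 0.876 FPKM in DDC and 0 and 0 FPKM in CHOW heavy polysomes. It was called higher there (adjusted p = 0.00888), but it passed the filter on low values only through 3 DDC libraries, so nothing about the diet is read from that call, and no fold is given against CHOW libraries listed at 0. Cox6b2, known from testis, ran from 0.502 to 8.90 FPKM in DDC and 0 to 3.0 FPKM in CHOW with no call. Cox7a1, the heart and muscle form of subunit 7a, was at 6.31 and 3.92 FPKM in DDC and 1.57 and 1.99 FPKM in CHOW cytoplasm, where the diets did not overlap but the difference was not called (log2 change 1.11 ± 0.52, adjusted p = 0.152). As a share of Cox7a1 and Cox7a2 together it was 7.62% and 5.81% in DDC cytoplasm and 1.33% and 1.27% in CHOW cytoplasm. Over the 8 libraries of each diet that share ran from 2.52% to 7.62% in DDC (median 4.79%) and from 0.697% to 2.71% in CHOW (median 1.28%), ranges that overlapped at their ends, and the liver form Cox7a2 supplied at least 92.4% in every library. Cox7a2 itself was at 76.5 and 63.6 FPKM in DDC and 117 and 155 FPKM in CHOW cytoplasm (log2 change -0.94 ± 0.26, adjusted p = 0.0215).

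Of the 18 ATP synthase genes tested, 11 were called lower in cytoplasm, 13 on monosomes, 14 on light polysomes and 15 on heavy polysomes. The catalytic head with its central stalk is built from alpha, beta, gamma, delta and epsilon chains, whose messages were not all called lower. Atp5e, the epsilon chain of the central stalk (chr2:174461072-174464105), was at 114 and 82.9 FPKM in DDC and 325 and 349.5 FPKM in CHOW cytoplasm, and at 711 and 1162 FPKM in DDC and 4169 and 4163 FPKM in CHOW light polysomes. Every DDC value was below every CHOW value of its pool, with log2 changes of -1.79 ± 0.34 in cytoplasm (adjusted p = 0.00362), -2.40 ± 0.34 on monosomes (0.000327), -2.20 ± 0.34 on light polysomes (0.000704) and -1.69 ± 0.34 on heavy polysomes (0.00382). Atp5d, the delta chain bound to epsilon in that stalk, was at 307 and 215 FPKM in DDC and 264 and 278 FPKM in CHOW cytoplasm, and at 4580 and 2273 FPKM in DDC and 4178 and 3991 FPKM in CHOW heavy polysomes. Its diets overlapped in both pools, and its log2 changes of -0.08 ± 0.31, 0.12, 0.09 and -0.34 ± 0.31 in cytoplasm, on monosomes, light polysomes and heavy polysomes were not called (adjusted p = 0.898, 0.792, 0.851 and 0.463). With equal library totals the cytoplasmic and heavy polysome values of Atp5d turned to 0.13 and 0.16. The gamma chain Atp5c1 was called in all pools (-0.91, -0.99, -1.55 and -1.01).

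Atp5a1, the alpha chain, was at 155 and 151 FPKM in DDC and 319 and 345 FPKM in CHOW cytoplasm (log2 change -1.11 ± 0.26, adjusted p = 0.0111) and at 625 and 452 FPKM in DDC and 1073 and 987 FPKM in CHOW heavy polysomes (log2 change -0.95 ± 0.26, adjusted p = 0.0205), with no overlap. Atp5b, the catalytic beta chain, was at 647 and 386 FPKM in DDC and 630.4 and 732 FPKM in CHOW cytoplasm. There 1 DDC value lay between the CHOW values and the other below, and the change was not called (log2 change -0.44 ± 0.32, adjusted p = 0.355). On ribosomes Atp5b was called lower in all 3 fractions, with 2135 and 1211 FPKM in DDC and 3786 and 3244 FPKM in CHOW heavy polysomes (log2 change -1.12 ± 0.32, adjusted p = 0.0218). With protein-coding transcripts alone its light and heavy polysome calls ended and its monosome value turned to 1.08 (adjusted p = 0.0199).

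Among the stalk and membrane subunits, Atp5j, coupling factor 6 of the side stalk (chr16:84827866-84835625), was at 127 and 106 FPKM in DDC and 314 and 386 FPKM in CHOW cytoplasm, and at 409 and 238 FPKM in DDC and 908 and 1168 FPKM in CHOW heavy polysomes. The DDC values lay far below the CHOW values in both pools (-1.58 ± 0.27 and -1.72 ± 0.27, adjusted p = 0.00197 and 0.000905). Atp5f1, subunit b of the same stalk, was at 102 and 101 FPKM in DDC and 320.2 and 283 FPKM in CHOW light polysomes (log2 change -1.56 ± 0.19, adjusted p = 0.000159) with no overlap. Most of that sum was a transcript annotated as a target of nonsense-mediated decay (80.85 and 77.9 in DDC, 286 and 260 in CHOW). The protein-coding transcript of Atp5f1 overlapped there, at 21.1 and 22.7 FPKM in DDC and 33.95 and 22.4 FPKM in CHOW. Atp5h, subunit d of the side stalk, was called in every pool (-0.72 in cytoplasm to -1.07 on heavy polysomes). Atp5o, the protein that ties that stalk to the head, was called on ribosomes (-1.0, -1.22 and -1.02 by increasing ribosome number) and not in cytoplasm (-0.68, adjusted p = 0.0711). Atp5k, subunit e, which takes part in pairing of ATP synthases, was at 318 and 313 FPKM in DDC and 1515 and 1312 FPKM in CHOW monosomes. All its DDC values were below its CHOW values, with log2 changes of -2.16 ± 0.24 there (adjusted p = 6.77e-05) and -1.21 ± 0.24 in cytoplasm (adjusted p = 0.00384). The other small membrane subunits Atp5j2, Atp5l and Atp5mpl were called in all 4 pools, with cytoplasmic log2 changes of -1.03, -1.22 and -1.15. Usmg5 was called on ribosomes only (-0.35 in cytoplasm, adjusted p = 0.423). Atp5s, coupling factor B, ran from 0.0228 to 2.59 FPKM in DDC and 0.911 to 3.61 FPKM in CHOW and was not called.

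Subunit c forms the rotating ring of ATP synthase, and 3 genes, Atp5g1, Atp5g2 and Atp5g3, encode the same mature chain behind different import sequences. Atp5g3 was at 198 and 191 FPKM in DDC and 456 and 531 FPKM in CHOW cytoplasm, a log2 change of -1.33 ± 0.22 (adjusted p = 0.00163), the lowest adjusted p of complex V in that pool, and the diets did not overlap. Atp5g1 was at 112 and 106 FPKM in DDC and 171 and 199 FPKM in CHOW (log2 change -0.75 ± 0.29, adjusted p = 0.0801) and Atp5g2 at 61.5 and 57.2 FPKM in DDC and 73.4 and 83.0 FPKM in CHOW (log2 change -0.39 ± 0.28, adjusted p = 0.358), neither of them called. Atp5g3 thereby made up 53.6% ± 0.52 of subunit c messages in DDC cytoplasm and 65.2% ± 0.16 in CHOW cytoplasm (SD, n = 2), and Atp5g2 16.4% ± 0.25 in DDC and 10.3% ± 0.19 in CHOW. Both DDC libraries stood outside the CHOW pair for each of those 2 shares, and in the same direction on light and heavy polysomes. On monosomes the Atp5g2 share was instead lower in DDC (15.9% and 15.7%) than in CHOW (19.0% and 18.9%). The Atp5g3 share overlapped there, at 41.3% and 27.9% in DDC and 38.2% and 40.7% in CHOW. On heavy polysomes Atp5g3 was at 1624 and 1136 FPKM in DDC and 3278 and 3683 FPKM in CHOW (log2 change -1.35 ± 0.22, adjusted p = 0.00114) and Atp5g1 at 1026 and 653 FPKM in DDC and 1879 and 2061 FPKM in CHOW (log2 change -1.27 ± 0.29, adjusted p = 0.00698), each without overlap. Atp5g2 was at 439 and 222 FPKM in DDC and 487 and 485 FPKM in CHOW there and again not called (-0.64, adjusted p = 0.12). Atpif1, the inhibitor that stops ATP synthase from running backwards and is not a subunit, was at 71.5 and 63.4 FPKM in DDC and 27.9 and 26.6 FPKM in CHOW cytoplasm. It was higher in DDC (log2 change 1.27 ± 0.39, adjusted p = 0.035) with no overlap, and was not called on monosomes (0.15), light polysomes (0.79) or heavy polysomes (0.76).

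Some of these sums hold transcripts not annotated as protein-coding, such as retained introns and targets of nonsense-mediated decay. For 11 members such transcripts took over 20% of the gene's FPKM in some library, and Atp5b was the clearest case. Its protein-coding transcripts held 28.2% and 18.9% of its FPKM on DDC monosomes and 6.98% and 4.27% on CHOW monosomes, 20.2% and 50.1% on DDC heavy polysomes and 20.0% and 21.9% on CHOW heavy polysomes, and 38.2% and 73.6% in DDC cytoplasm against 77.5% and 60.5% in CHOW cytoplasm. The rest lay mostly on a noncoding transcript of 478 bases, and the split of reads between transcripts is an estimate of the authors' software. With protein-coding transcripts alone, Atp5b was higher in DDC on monosomes (1.08, adjusted p = 0.0199) and not called on light polysomes (0.60, adjusted p = 0.179), on heavy polysomes (-0.52, adjusted p = 0.275) or in cytoplasm (-0.81, adjusted p = 0.0923). Counted that way, Atp5a1 lost its monosome call (-0.30, adjusted p = 0.402) and kept that on light polysomes (-0.82, adjusted p = 0.0345). Atp5f1 lost its calls on monosomes (-0.26, adjusted p = 0.415) and light polysomes (-0.32, adjusted p = 0.343) but not in cytoplasm (-1.35, adjusted p = 0.00245), and Sdha lost its monosome call (-0.51, adjusted p = 0.204).

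**Figure D4:**
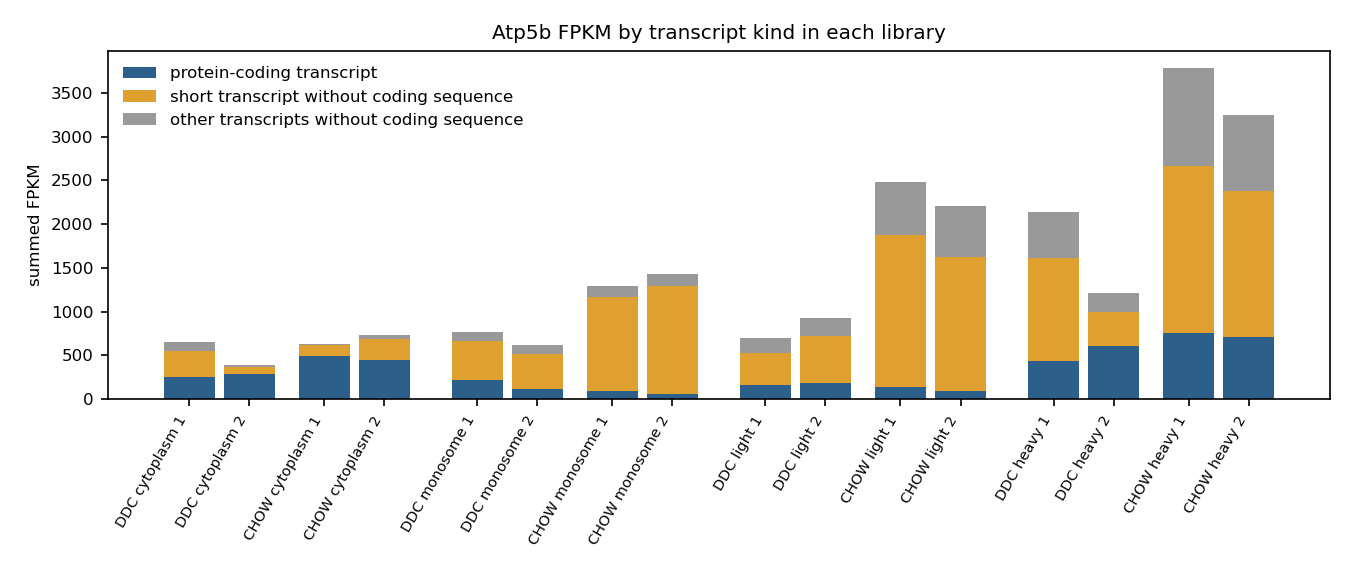
FPKM of Atp5b in each of the 16 libraries, split into protein-coding and other transcripts, with DDC left of CHOW in each RNA pool. Other transcripts make up most of the CHOW ribosome-bound signal, where the protein-coding share is 4.16% to 21.9%.

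Genes of the same pathway outside complexes II to V were set beside the members. For all counts that follow, the shares of all genes tested that were lower were 9.68% in cytoplasm, 15.9% on monosomes, 13.5% on light and 10.9% on heavy polysomes. The shares that were higher were 12.7%, 21.0%, 16.6% and 13.9%. Of 36 nuclear subunits of complex I, the entry point for electrons from NADH, 16 were lower in cytoplasm, 24 on monosomes, 28 on light polysomes and 31 on heavy polysomes, with 0 higher in any pool and medians of -0.77, -0.94, -1.22 and -1.26. They included Ndufv2, an iron-sulfur subunit (-1.18 in cytoplasm), and Ndufb8 (-1.87 on heavy polysomes). Of 35 assembly factors of complexes II to V, 6 were lower and 1 higher in cytoplasm and 11 were lower and 0 higher on heavy polysomes (medians -0.39 and -0.57). Fmc1, an ATP synthase assembly factor, was lower in both (-2.61 and -2.50), and Coa7, a complex IV assembly factor, was higher in cytoplasm (log2 change 1.02 ± 0.25, adjusted p = 0.013). Of 13 regulators of respiratory genes 2 were lower and 0 higher in cytoplasm, beside the 9.68% of all genes that were lower there: Tfam, which packs and transcribes mitochondrial DNA (-0.89), and Slirp, which keeps mitochondrial messages stable (-1.17). On heavy polysomes 2 were lower and 0 higher as well, beside 10.9% of all genes lower: Slirp (-1.84) and its binding partner Lrpprc (-1.16). The counts were 4 lower and 1 higher on monosomes and 4 lower and 0 higher on light polysomes, beside 15.9% and 13.5% of all genes lower. Mitochondrially encoded messages were listed at 0 in whole groups of libraries, mt-Co1 for example in cytoplasm and on monosomes of both diets. On light polysomes 10 of them were tested with 0 called, and on heavy polysomes 10 with 1 called higher, mt-Nd1 of complex I, and 0 lower.

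Promoters of the members were searched for the sequences of factors known to drive respiratory genes. RefSeq promoters (GRCm38.p6, 250 bases before to 50 after the start) matched 37 members. The NRF1 sequence, GCGCA and GCGC with any 1 base between them, was in 10 of them (27.0%), against 5.19% of 27025 promoters and 11.6% of the 8613 promoters of protein-coding genes tested here, with both strands searched. The ETS sequence CCGGAAG, the core read by the factor GABP (also called NRF-2), was in 13 (35.1%), against 9.93% of all promoters and 20.9% of those of genes tested. The YY1 sequence, AAGATG directly followed by GCGGC, was in 0 of the 37, against 0.755% and 1.94%. To show how these sequences lie, 150-base stretches of 4 promoters follow, written 5′ to 3′ on the gene's own strand (minus for all 4), with the NRF1 and ETS sequences, in either orientation, in capitals. Sdha holds 3 NRF1 sequences, Sdhd and Cox6a1 hold both kinds, and Atp5e, with one of the widest diet differences, holds an ETS sequence.
Sdha (chr13:74350241-74350390): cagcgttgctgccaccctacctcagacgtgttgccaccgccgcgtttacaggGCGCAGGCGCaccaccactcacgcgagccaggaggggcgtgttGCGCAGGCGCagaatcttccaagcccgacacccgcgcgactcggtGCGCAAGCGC
Sdhd (chr9:50603850-50603999): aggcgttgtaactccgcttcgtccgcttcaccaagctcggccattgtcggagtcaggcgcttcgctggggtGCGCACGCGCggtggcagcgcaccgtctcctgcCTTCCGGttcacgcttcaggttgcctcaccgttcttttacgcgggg
Atp5e (chr2:174464102-174464251): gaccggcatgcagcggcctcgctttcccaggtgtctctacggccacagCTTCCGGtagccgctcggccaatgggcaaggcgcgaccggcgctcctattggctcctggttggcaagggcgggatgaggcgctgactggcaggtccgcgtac
Cox6a1 (chr5:115348959-115349108): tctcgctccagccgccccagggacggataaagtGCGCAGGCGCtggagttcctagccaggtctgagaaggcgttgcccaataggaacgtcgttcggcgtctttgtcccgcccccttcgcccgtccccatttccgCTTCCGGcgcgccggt
Among members with a promoter, 6 of 10 with the NRF1 sequence and 13 of 26 without it were lower in cytoplasm, and 7 of 10 and 19 of 26 on heavy polysomes. For the ETS sequence the counts were 9 of 13 with it and 10 of 23 without it in cytoplasm, and 11 of 13 and 15 of 23 on heavy polysomes. A match is a stretch of letters and was not tested for binding.

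A second set of comparisons asked on how many ribosomes each message sat. Relative to monosomes, members were higher on light polysomes: 22 of 46 were called higher and 0 lower in DDC (median 0.89), where 3.64% of all genes were called in either direction, and 32 higher and 1 lower in CHOW (median 1.20), where 12.8% of all genes were. From light to heavy polysomes they parted, with 16 higher and 7 lower in DDC (median 0.44; 22.6% of all genes called) and 13 higher and 9 lower in CHOW (median 0.20; 31.2% of all genes called). With every library scaled to the same total the split was 10 higher and 13 lower in DDC and 9 and 17 in CHOW (medians -0.06 and -0.45), and with quantile scaling 8 and 14 in DDC and 9 and 16 in CHOW. A change of library total shifts all members alike, so it moves their sign and not their order. Heavy polysomes against monosomes gave 31 higher and 0 lower in DDC (32.7% of all genes called) and 29 higher and 2 lower in CHOW (44.8% of all genes called), and with equal totals 22 higher and 3 lower in DDC and 21 and 8 in CHOW. Without the 4 CHOW libraries numbered 1, light against monosome calls numbered 0 in DDC and 1 in CHOW, and heavy against light calls 13 in DDC and 4 in CHOW. Leaving out any 1 of the libraries compared left 8 to 12 of the light against monosome calls in DDC and 12 to 21 in CHOW, and fits to the compared groups alone called 0 members in DDC for both steps.

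Where a message was highest went with the length of its protein. Of the 43 members that reached 10 FPKM in some library, 27 were highest on heavy polysomes, 15 on light polysomes and 1 on monosomes in DDC, and 24, 18 and 1 in CHOW. These counts, and the codon medians that follow, compare FPKM as deposited and were not repeated with equal library totals. Totals were 617850 and 761690 on light against 1092668 and 858593 on heavy polysomes in DDC. In CHOW they were 884454 and 842569 against 1386166 and 1364644. The median protein was 161 codons for those highest on heavy polysomes and 71 for those highest on light polysomes in DDC, and 164.5 and 78 in CHOW. The log2 change of heavy against light polysomes had a median of -1.26 in DDC and -1.44 in CHOW for the 8 proteins of at most 75 codons and of -0.55 and -0.51 for the 8 of 76 to 100 codons. It was 0.61 and 0.44 for the 12 of over 100 to 150 codons, 1.31 and 1.86 for the 5 of over 150 to 250 and 1.18 and 0.58 for the 10 above 250. Over all protein-coding genes tested the medians were -0.73 in DDC and -0.96 in CHOW for at most 75 codons. For 76 to 100 codons they were -0.55 and -0.50, close to those of the members. They were -0.25 and -0.19 for over 100 to 150, -0.02 and -0.0035 for over 150 to 250 and 0.04 and 0.02 above 250. Across the 43 members the change and the log2 number of codons had a Pearson r of 0.723 and a Spearman rho of 0.792 in DDC, and 0.650 and 0.761 in CHOW. These are descriptions across genes measured in the same libraries, and codon number itself went with transcript length (r = 0.82), which enters the FPKM. With transcript length in place of codons r was 0.590 in DDC and 0.486 in CHOW, and with protein-coding transcripts alone the r for codons was 0.736 and 0.747. With all transcripts summed, the r for codons over all protein-coding genes tested was 0.094 in DDC and 0.103 in CHOW. Over those of at most 250 codons it was 0.247 and 0.268, whereas the members' r includes the 10 above 250 codons.

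**Figure D5:**
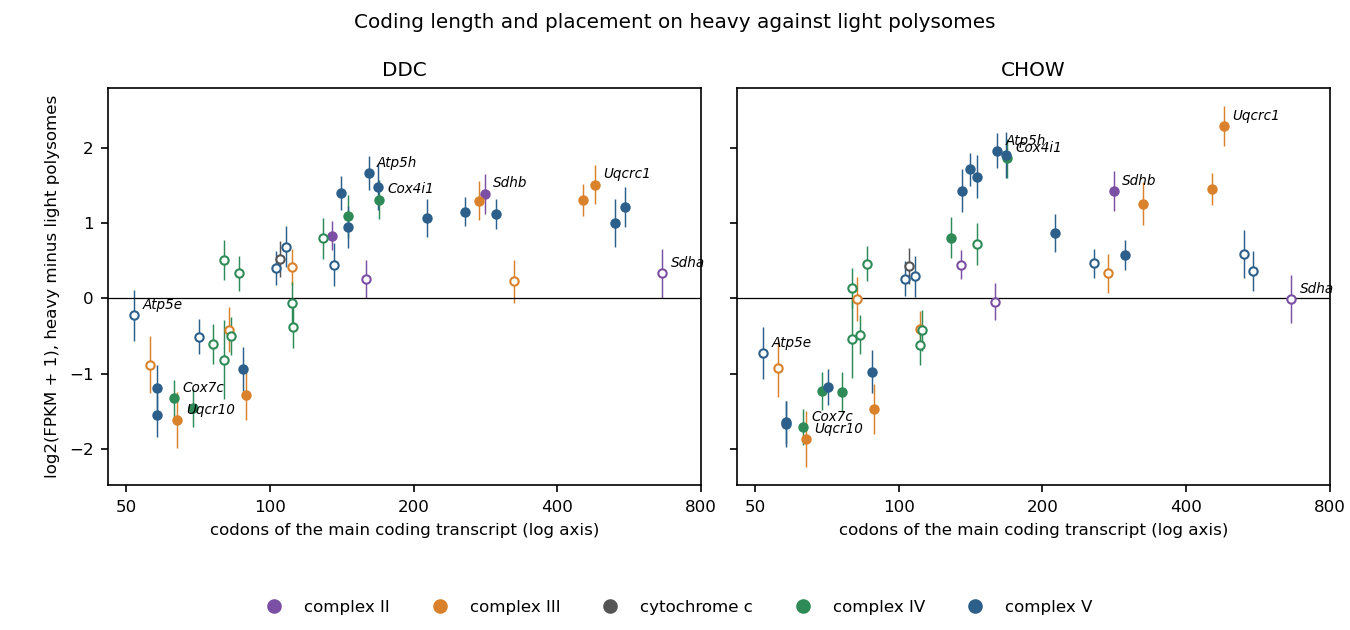
Log2 change of heavy against light polysomes for 43 members, plotted against the number of codons (log axis), in DDC (left) and CHOW (right), with colours for complexes. Members of at most 75 codons lie below 0 in both diets, with medians of -1.26 and -1.44, and those of over 150 to 250 codons have medians of 1.31 and 1.86.

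To show how short the reading frames at the lower end are, 5 of the 8 under that length are printed whole, as annotated in GENCODE M21 on GRCm38, 5′ to 3′ with the start and stop codons in capitals. Atp5e lies on chromosome 2, Uqcr11 on 10, Atp5mpl on 12, Cox7c on 13 and Atp5k on 5, and their proteins have 52, 56, 58, 63 and 71 residues.
Atp5e: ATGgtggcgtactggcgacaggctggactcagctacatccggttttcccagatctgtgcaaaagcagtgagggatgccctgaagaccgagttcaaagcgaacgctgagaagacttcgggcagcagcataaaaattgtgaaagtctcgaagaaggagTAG
Uqcr11: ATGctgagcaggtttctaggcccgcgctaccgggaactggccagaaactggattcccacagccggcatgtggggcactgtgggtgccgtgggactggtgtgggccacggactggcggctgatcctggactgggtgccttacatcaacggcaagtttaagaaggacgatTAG
Atp5mpl: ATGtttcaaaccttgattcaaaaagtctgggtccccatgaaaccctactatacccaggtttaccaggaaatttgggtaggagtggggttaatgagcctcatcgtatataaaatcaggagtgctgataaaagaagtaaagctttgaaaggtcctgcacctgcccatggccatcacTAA
Cox7c: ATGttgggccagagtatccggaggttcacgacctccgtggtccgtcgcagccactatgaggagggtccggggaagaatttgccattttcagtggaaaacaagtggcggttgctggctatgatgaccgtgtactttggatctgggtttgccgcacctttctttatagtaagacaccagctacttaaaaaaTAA
Atp5k: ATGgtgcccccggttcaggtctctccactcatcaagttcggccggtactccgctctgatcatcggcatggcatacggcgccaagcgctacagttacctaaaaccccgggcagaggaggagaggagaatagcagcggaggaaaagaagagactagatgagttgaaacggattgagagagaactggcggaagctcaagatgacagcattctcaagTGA
Of these, Cox7c was at 164 and 149 FPKM on monosomes, 413 and 434 on light polysomes and 211 and 134 on heavy polysomes in DDC, and at 444 and 458, 1435 and 1631, and 414 and 527 in CHOW. Light polysome libraries were above the others in both diets. Heavy against light polysomes its change was -1.33 ± 0.24 in DDC (adjusted p = 0.00335) and -1.71 ± 0.24 in CHOW (adjusted p = 0.000507). Atp5mpl was called lower on heavy than on light polysomes in both diets too (-1.19 in DDC and -1.67 in CHOW), as were Usmg5 (-1.55 and -1.65), Uqcr10 (-1.62 and -1.87) and Cox8a (-1.45 and -1.23), which belong to the same length class. Atp5e, the shortest, was not called (-0.23 ± 0.34 in DDC, adjusted p = 0.674, and -0.73 ± 0.34 in CHOW, adjusted p = 0.128). Nor was Uqcr11 (-0.88 in DDC, adjusted p = 0.118, and -0.93 in CHOW, adjusted p = 0.0838). Atp5k was called in CHOW (-1.18, adjusted p = 0.00322) and not in DDC (-0.51, adjusted p = 0.144).

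At the other end of the heavy against light change in CHOW, not of length, stood Atp5h, Uqcrc1, Cox4i1, Atp5d and Atp5g3. Their proteins have 161, 480, 169, 168 and 141 codons. Uqcrc1 (chr9:108936633-108949623) was at 72.8 and 63.1 FPKM on monosomes, 149.8 and 147 on light polysomes and 798 and 664 on heavy polysomes in CHOW. The heavy polysome libraries stood above the rest, by 2.29 ± 0.26 against light polysomes and 3.40 ± 0.26 against monosomes (adjusted p = 0.000186 and 6.76e-06). Atp5h was at 279.7 and 244 FPKM on light and 1042 and 664 FPKM on heavy polysomes in DDC (log2 change 1.67 ± 0.23, adjusted p = 0.000943), and at 458 and 439.8 and 1704 and 1796 FPKM in CHOW (log2 change 1.96 ± 0.23, adjusted p = 0.000205). Cox4i1 and Atp5d were called higher on heavy than on light polysomes in both diets (1.31 and 1.47 in DDC, 1.86 and 1.91 in CHOW). Sdhb, with its iron-sulfur clusters, was called higher there as well (1.39 in DDC and 1.43 in CHOW). Of the members above 250 codons, Atp5a1 (0.36), Atp5b (0.58), Uqcrfs1 (0.33) and Atp5f1 (0.46) were not called in CHOW. Cyc1 (0.22) was not called in DDC. The others above 250 codons, apart from Sdha, were called higher in both diets. Sdha, which has the longest protein of all members, was called in neither diet. Its DDC light and heavy polysome values overlapped, as did those in CHOW, and the change was 0.33 ± 0.32 in DDC (adjusted p = 0.495) and -0.01 ± 0.32 in CHOW (adjusted p = 0.998). The CHOW sums held a retained-intron transcript at 27.7 and 24.2 FPKM on light and 0.478 and 0.618 FPKM on heavy polysomes. The protein-coding transcript of Sdha did not overlap in CHOW, at 73.3 and 74.9 FPKM on light and 90.2 and 101.4 FPKM on heavy polysomes.

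Cox7a2l (chr17:83501918-83517330) was the one member highest on monosomes, by FPKM as deposited, among the 43 that reached 10 FPKM. In CHOW it was at 389 and 395 FPKM on monosomes, 154 and 169 on light polysomes and 114 and 96.7 on heavy polysomes, and both monosome libraries exceeded all other CHOW libraries. Heavy against monosomes its change in CHOW was -1.89 ± 0.27 (adjusted p = 0.0002), and light polysomes against monosomes -1.27 ± 0.27 (adjusted p = 0.0127). In DDC the values were 154 and 91.0 on monosomes, 86.6 and 122 on light polysomes and 88.9 and 108 on heavy polysomes, which overlapped (-0.27 ± 0.27 for heavy against monosomes, adjusted p = 0.492). The difference between the diets in that placement was 1.63 ± 0.39 (adjusted p = 0.0523) and was not called. Cycs, in contrast, was low on monosomes, at 15.4 and 14.8 FPKM in DDC and 13.9 and 11.2 FPKM in CHOW, and it was higher on light polysomes in both diets (1.93 ± 0.24 in DDC and 2.42 ± 0.24 in CHOW, adjusted p = 0.00227 and 0.000533).

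The last comparisons asked whether the diet changed placement itself, that is, whether the change from monosomes or cytoplasm to heavy polysomes differed between DDC and CHOW. For heavy polysomes against monosomes 1 member was called, and it was lower, where 1.90% of all genes were called. That member was Uqcrc1, with 159 and 114 FPKM on monosomes and 542 and 341 FPKM on heavy polysomes in DDC, against 72.8 and 63.1 and 798 and 664 FPKM in CHOW. Heavy polysome libraries exceeded monosome libraries in both diets, by 1.67 ± 0.26 in DDC and 3.40 ± 0.26 in CHOW, and the difference between the diets was -1.74 ± 0.37 (adjusted p = 0.0413). The call ended under quantile scaling (-1.40, adjusted p = 0.0547) and without the 4 CHOW libraries numbered 1 (-1.71, adjusted p = 0.206). It also ended when DDC monosome replicate 1, DDC heavy polysome replicate 2, CHOW monosome replicate 2 or either CHOW heavy polysome library was left out alone, with differences of -1.40 to -2.07 over all such omissions. Cyc1 (-1.36, adjusted p = 0.0895), Atp5g1 (-1.48, adjusted p = 0.0745) and Atp5g3 (-1.11, adjusted p = 0.0828) had negative differences that were not called, while that of Cox7a2l was positive. In all 8 of 46 members, 5 with negative and 3 with positive differences, had an unadjusted p under 0.05, against 2378 of 11746 genes tested. For heavy polysomes against cytoplasm limma called 0 members, where 0.102% of all genes were called, and 1 of 46 members had an unadjusted p under 0.05, against 1387 of 11747 genes tested. The 2 DDC heavy polysome libraries were further apart over the members than any other pair, with a replicate SD over members of 0.451 (log2), against 0.0874 to 0.20 in the other groups, and a median difference of replicate 2 from replicate 1 of -0.62 over the members and 0 over all genes.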

How the data were processed

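Polyadenylated RNA of hepatocyte cytoplasm, monosomes, light polysomes and heavy polysomes was measured in 16 libraries with a strand-specific kit, per the labels' protocols. The table the authors deposited holds FPKM for each transcript, made with Cuffnorm, which scales libraries to each other. The submitters' processing notes also name bcl2fastq 2.17.1.14, Trimmomatic, STAR 2.4.2a and Picard 1.119, with the GRCm38 (mm10) genome. FPKM divide by transcript length and library size, so read depth is unknown and no counting interval is given. Here the FPKM were summed per GENCODE M21 gene: 116728 of 117592 transcripts matched (99.3%), and the rest, at most 0.509% of a library's FPKM, were left out.

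Genes that reached 1 FPKM in 2 or more libraries were tested on log2(FPKM + 1), a scale that understates changes of genes with low values. Using limma 3.58.1 in R 4.3.3, 8 group means were fitted to all 16 libraries with a variance trend, sharing 1 estimate of spread (8 residual degrees of freedom), and p-values of each of 12 comparisons were adjusted over all genes by Benjamini-Hochberg. Where both libraries of a group were at 0 although the gene reached 100 FPKM in another library, the group was treated as missing (49 genes, 0 members). The fit was also run on simulated data with independent noise of the same spread in all libraries. Such data cannot check the effect of shared preparations or of unequal spread between groups. Shares and sequence searches were computed in Python 3.11.15 with pandas 2.3.3, and plots drawn with matplotlib 3.10.9.

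Replicate numbers mark shared preparations among gradient fractions of the same diet, not between diets. The correlation of replicate differences across genes was 0.293 to 0.373 between DDC fractions, -0.062 to 0.171 between DDC cytoplasm and DDC fractions, 0.349 to 0.743 within CHOW and -0.107 to 0.074 between the diets. Per-library values in some pools were given for the called member of lowest adjusted p in each complex and diet comparison. They were also given for some members in the fraction comparisons and for a fixed set of catalytic subunits and isoforms. Other members are given by counts, ranges or single changes. The members, the comparison lists and the markers were chosen with earlier results of these data known. Alternatives were another pseudocount, other filters, equal library totals, quantile scaling, a replicate term, zeros kept, protein-coding transcripts only, no variance trend, the compared groups alone, each library left out, and the 4 CHOW libraries numbered 1 left out.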

Additional observations from a re-analysis of the deposited data

Results flagged for a closer look

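Uqcrc1, a core protein of complex III, differed between the diets in its placement on heavy polysomes against monosomes. The difference was -1.74 ± 0.37 on the log2 scale (limma, adjusted p = 0.0413): heavy polysomes exceeded monosomes by 1.67 in DDC and by 3.40 in CHOW. What drew attention was the test of the difference itself. Both DDC monosome libraries, at 159 and 114 FPKM, stood above both CHOW monosome libraries, at 72.8 and 63.1 FPKM, while both DDC heavy polysome libraries, at 542 and 341 FPKM, stood below both CHOW ones, at 798 and 664 FPKM. Uqcrc1 was 1 of 46 members so called, where 1.90% of all genes were called. The call ended under quantile scaling (-1.40, adjusted p = 0.0547), without the 4 CHOW libraries numbered 1 (adjusted p = 0.206) and with the compared groups alone (adjusted p = 0.224). It also ended without DDC monosome replicate 1 (adjusted p = 0.0736), DDC heavy polysome replicate 2 (0.0878), CHOW monosome replicate 2 (0.117), CHOW heavy polysome replicate 1 (0.0862) or CHOW heavy polysome replicate 2 (0.0594).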

How the results depend on the processing

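For counts of members called, the replicate block (a replicate term within each diet) gave 25 in cytoplasm, 31 on monosomes, 32 on light and 37 on heavy polysomes for the diet comparisons, against 24, 31, 31 and 34. With the replicate block 2 members instead of 1 differed between the diets in heavy polysome against monosome placement, and it ended no call of a member. In DDC that block joins cytoplasmic libraries C2 and D2 to gradient preparations B and C by number alone: their labels do not match and their replicate differences correlated at -0.062 to 0.171. That placement count was also 2 with a filter at 5 FPKM, with zeros kept and with protein-coding transcripts alone, 3 with equal totals, and 0 with quantile scaling, with the compared groups alone and without the 4 CHOW libraries numbered 1. Calls on heavy polysomes between the diets came to 18 with equal totals, 20 with quantile scaling and 1 in the compared groups alone. Monosome calls came to 19 in the compared groups alone. The compared groups alone gave 0 calls for light polysomes against monosomes in DDC and 18 in CHOW, 0 for heavy against light polysomes in DDC and 11 for heavy polysomes against monosomes in DDC. Without the 4 CHOW libraries numbered 1 the diet calls were 1, 18, 14 and 10 over cytoplasm, monosomes, light and heavy polysomes, light against monosome calls 0 in DDC and 1 in CHOW, and heavy against light calls 13 in DDC and 4 in CHOW. That setting and the compared groups alone have fewer libraries by construction, and the cause of the other shifts was not tested.

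Leaving out 1 library at a time gave 8 to 15 diet calls in cytoplasm, 24 to 29 on monosomes, 24 to 29 on light polysomes and 20 to 36 on heavy polysomes. It gave 8 to 12 for light polysomes against monosomes in DDC and 12 to 21 in CHOW, 16 to 21 and 18 to 19 for heavy against light polysomes, and 25 to 35 and 29 to 30 for heavy polysomes against monosomes. Differences between diets in placement numbered 0 to 4 against monosomes and 0 to 1 against cytoplasm. A lone library was assumed to vary like the other groups. Over the 9 alternatives that use all 16 libraries, 20 of 24 cytoplasmic diet calls, 20 of 31 on monosomes, 24 of 31 on light and 18 of 34 on heavy polysomes held throughout.

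Signs turned for members that were not called, apart from Atp5b and Atp5c1. Equal totals gave Atp5d 0.13 in cytoplasm and 0.16 on heavy polysomes, Cox6a1 0.19 on monosomes and 0.0697 on heavy polysomes, Atp5g2 0.0139 on monosomes, Cycs 0.0972 on light and 0.37 on heavy polysomes, and Atp5c1 -0.0941 for heavy against light polysomes in CHOW. Quantile scaling gave Atp5d 0.21 in cytoplasm, Cox6a1 0.39 on monosomes, Cycs 0.12 on heavy polysomes and Atp5c1 -0.0756. Protein-coding transcripts alone gave Atp5b 1.08 on monosomes and 0.60 on light polysomes, and Cycs -0.0429 on monosomes. Without the 4 CHOW libraries numbered 1 Atp5d was at -0.0275 on monosomes. With 1 library left out, Atp5d ranged from -0.33 to 0.18 in cytoplasm, -0.0412 to 0.28 on monosomes and -0.85 to 0.17 on heavy polysomes, Cox6a1 from -0.0781 to 0.47 in cytoplasm and -0.44 to 0.20 on monosomes, Atp5g2 from -0.0603 to 0.12 on light polysomes, and Cycs from -0.46 to 0.0076 on light and -0.27 to 0.0071 on heavy polysomes. Equal totals moved the median of all genes by 0.18 to 0.29 in the diet comparisons.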
